A study of Rattus norvegicus with 6 samples.

Results

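Copper enters a cell through a dedicated importer, is handed from protein to protein by small chaperones and leaves, or is loaded onto secreted enzymes, through ATP-driven pumps. The genes described here encode proteins of those steps. They are the importer Slc31a1 and its relative Slc31a2, the pumps Atp7a and Atp7b, and the pump regulator Commd1. The cytosolic chaperones are Atox1 and Ccs, and the mitochondrial chaperones are Cox17, Sco1 and Sco2. All were taken by symbol from a list of 10 names, 9 of which have a row among the 18237 rows of the count files. Sco2 was not analysed here. All 9 passed the filter on low counts and entered the test with 11726 genes in all.

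RNA sequencing was done on cultured Rattus norvegicus cells whose tissue is given as myocardial cells and whose cell type as NRVM, which commonly stands for neonatal rat ventricular myocytes, while the growth protocol derives them from embryonic heart muscle. The groups were cells given an siRNA against the metallothionein gene Mt2 (siMt2, 3 libraries) and cells given a control siRNA (siNT, 3 libraries). Both groups were grown in DMEM with serum and antibiotics, and the extraction text of both also names dexamethasone, isobutylmethylxanthine and insulin without saying whether these cells received them. Nothing in the labels gives the siRNA sequence, its dose, the time after transfection or separate cultures behind the replicates, so p-values cover only the scatter among these 6 libraries, and that scatter may be technical.

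In background, nearly all copper in a cell is bound to protein, and metallothioneins, the product of the targeted gene among them, hold copper and zinc in reserve. In heart muscle copper serves, among others, cytochrome c oxidase, the last enzyme of the respiratory chain, and the superoxide dismutase Sod1. Loss of ATP7A causes Menkes disease in humans and loss of ATP7B causes Wilson disease, in which copper accumulates in the liver.

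Library totals lay between 2859759 counts (siMt2 replicate 3) and 6817777 counts. The targeted transcript, Mt2a in the files, stood at 70.4, 87.0 and 141 CPM in the libraries labelled siMt2 and at 90.4, 169 and 93.0 CPM in the siNT libraries, where CPM is the number of counts per 1000000 counts of the TMM-scaled library. Its groups overlapped, with an edgeR log2 fold change of -0.28 (SE 0.42, adjusted p = 0.631) and an exact two-sided permutation p of 0.5, so a lower Mt2a transcript was not detectable and groups are called by their labels. Of 14 heart muscle cell markers, 10 have a row and 2, Tnnt2 and Ttn, passed the filter. Tnnt2, the troponin T of heart muscle, had 1201 counts in all and was higher in the libraries labelled siMt2, at 54.3 ± 5.17 CPM against 27.1 ± 1.37 CPM in the siNT libraries (SD, n = 3 each; edgeR log2 fold change 1.01, adjusted p = 1.78e-07), and Ttn did not pass (adjusted p = 0.169). The other defining markers Myh6, Actc1 and Tnni3 had 9, 4 and 3 counts over all 6 libraries, so the labelled cell type is not borne out by these 3 markers, while Tnnt2 was detected. Beside the marker counts that follow stand 25.8% of all genes tested that were called higher and 25.1% called lower. Of 9 fibroblast markers, 8 were tested, with 6 higher in the libraries labelled siMt2 and 0 lower. Their summed level ran from 9853 to 13811 CPM there and from 7576 to 7731 CPM in the siNT libraries. Most of each sum was Col1a1, at 6005 to 8916 CPM in the libraries labelled siMt2 and 4568 to 4877 CPM in the siNT libraries. Pdgfra, Dcn and Lum had 2, 50 and 51 counts over all 6 libraries. Of 5 smooth muscle markers tested, 4 were higher and 1 lower, with sums of 4071 to 4161 CPM in the libraries labelled siMt2 and 2308 to 2346 CPM in the siNT libraries. Of 11 skeletal muscle markers, 9 have a row and 3 were tested, with 2 higher and 1 lower. Myod1 had 591 counts in all and Tnnt3 had 323, both higher in the libraries labelled siMt2, and Myog, with 118, was lower. Of the endothelial, leukocyte and adipocyte markers 1 each was tested, Vwf, Cd14 and Lipe, with 161, 582 and 59 counts in all. Cd14 and Lipe were lower in the libraries labelled siMt2. The other leukocyte markers with a row, Ptprc, Cd68 and Lyz2, had 2, 17 and 9 counts over all 6 libraries. The other adipocyte marker with a row, Plin1, had 4, so these cell types are not borne out by those markers. The part of these shifts in the results below was not tested. On the second principal component siMt2 replicate 3 (-26.4) stood apart from siMt2 replicates 1 and 2 (9.58 and 18.8).

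Most of the copper route did not pass the test. Of the 9 genes, 1 was higher (Slc31a2) and 1 was lower (Ccs) in the libraries labelled siMt2 at an edgeR adjusted p of 0.05, which is 22.2% of them, where 50.9% of all 11726 genes tested were called, in either direction together. The same 2 genes were the only members whose groups did not overlap, 1 with siMt2 above and 1 with siMt2 below; groups did not overlap for 57.6% of all genes tested, 28.9% with siMt2 above and 28.7% below. The median log2 fold change of the 9 genes was -0.08, beside 0.00043 for all genes tested. The share of genes called differed with their level. In a band of 70 to 120 CPM, chosen after the values were seen, 61.1% of genes were called, and 1 of the 3 members in it, Ccs, was. Between 10 and 25 CPM 43.6% were called, and 1 of 5 members, Slc31a2, was. From 1 to 5 CPM 28.0% were called, and Atp7b, the member there, was not. In bulk RNA, fewer cells of a type and less RNA per cell cannot be told apart. Gene lengths of the counted models were not used, so CPM values are compared between groups and not between genes.

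**Figure D1:**
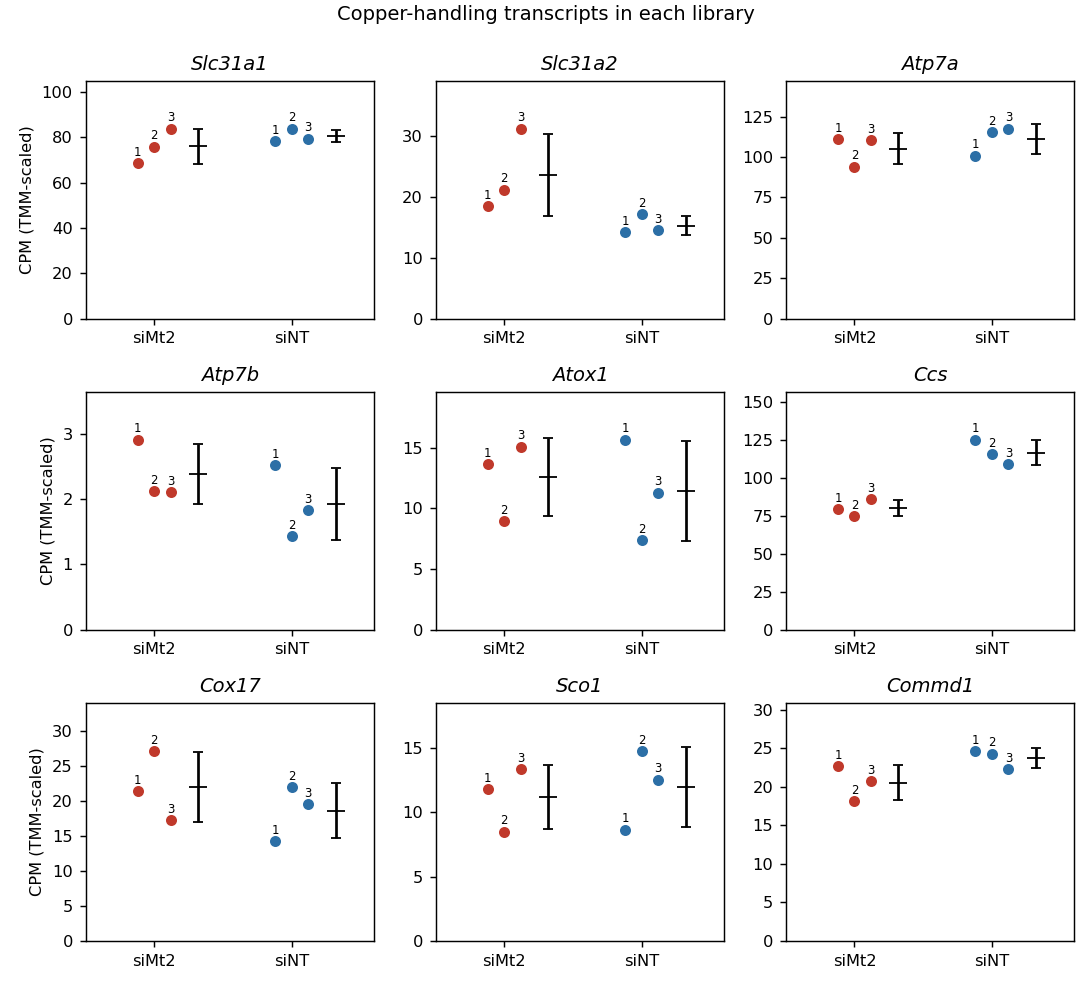
TMM-scaled CPM (vertical axis, from 0) of the 9 copper-handling genes in each library, siMt2 in red on the left and siNT in blue on the right; numbers are replicates and the bar beside each group is its mean ± SD (n = 3). The siMt2 points of Ccs all lie below the siNT points, those of Slc31a2 all lie above, and the other 7 genes overlap.

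The stretches upstream of the 2 genes that passed are shown with that of the targeted gene, because metallothionein genes carry the metal response element bound by the transcription factor Mtf1. Promoters of RefSeq (assembly GRCr8, 250 bases before to 50 after the start) were found for all 9 genes and searched on both strands for the core of that element, TGCACNC or TGCGCNC, which stands in capitals below; a capital stretch that does not begin with TGC is the core read from the other strand. The targeted gene is listed there as Mt2A. Coordinates are given with the strand of the gene, and each sequence runs 5′ to 3′ along the gene.
Ccs, chr1:211564211-211564510, minus strand: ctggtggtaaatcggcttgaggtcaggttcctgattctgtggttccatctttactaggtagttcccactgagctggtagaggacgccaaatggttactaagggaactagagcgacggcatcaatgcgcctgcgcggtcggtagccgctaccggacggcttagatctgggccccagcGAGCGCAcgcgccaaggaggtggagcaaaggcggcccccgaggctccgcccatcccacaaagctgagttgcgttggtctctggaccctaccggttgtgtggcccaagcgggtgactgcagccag
Slc31a2, chr5:80753368-80753667, plus strand: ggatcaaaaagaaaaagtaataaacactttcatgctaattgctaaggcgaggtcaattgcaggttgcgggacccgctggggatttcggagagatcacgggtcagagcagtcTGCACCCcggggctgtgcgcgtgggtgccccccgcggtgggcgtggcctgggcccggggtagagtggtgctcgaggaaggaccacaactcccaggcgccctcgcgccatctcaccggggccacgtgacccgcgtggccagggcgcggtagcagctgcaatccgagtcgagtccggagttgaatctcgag
Mt2A, chr19:10838659-10838958, minus strand: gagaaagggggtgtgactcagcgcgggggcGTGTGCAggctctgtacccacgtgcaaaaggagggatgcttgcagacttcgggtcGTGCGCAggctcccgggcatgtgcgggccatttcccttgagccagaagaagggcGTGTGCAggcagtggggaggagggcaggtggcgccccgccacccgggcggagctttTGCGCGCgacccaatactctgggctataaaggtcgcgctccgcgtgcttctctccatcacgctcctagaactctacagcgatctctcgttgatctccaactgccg
Ccs and Slc31a2 each hold 1 core, ending 68 and 133 bases before the start, while Mt2A holds 4 and Mt1 holds 6. The core was found in 5 of the 9 members' promoters, also those of Cox17, Commd1 and Atp7b, which did not pass the test, and in 24.2% of 33469 RefSeq promoters of the same length. A match of 7 letters is a description of the sequence and no binding was measured.

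Of the transcripts of the importer and its relative, 2 genes, 1 passed, and copper import itself was not measured. Slc31a1 encodes Ctr1, the high-affinity copper importer of the plasma membrane. It stood at 68.5, 75.9 and 83.9 CPM in the libraries labelled siMt2 and at 78.5, 83.9 and 79.4 CPM in the siNT libraries. The siNT values lie within the range of the siMt2 values, and the group means were 76.1 ± 7.68 and 80.6 ± 2.86 CPM (SD, n = 3 each). The edgeR log2 fold change was -0.10 (SE 0.08, adjusted p = 0.342), and its 95% interval runs from 0.828 to 1.05 times the siNT level. In the RefSeq annotation Slc31a1 overlaps Fkbp15 on the other strand, and the sources used here do not say whether reads were counted by strand. Fkbp15 was lower in the libraries labelled siMt2, at 26.7 ± 3.14 CPM against 35.6 ± 1.99 CPM in the siNT libraries (edgeR log2 fold change -0.39, adjusted p = 0.0091).

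Slc31a2 encodes Ctr2, a relative of the importer found on endosomes and lysosomes. It was higher in the libraries labelled siMt2, at 18.5, 21.2 and 31.2 CPM, against 14.2, 17.2 and 14.5 CPM in the siNT libraries. All siMt2 values lie above all siNT values, with replicate 3 well above the other two and replicate 1 close to the highest siNT library. Group means were 23.6 ± 6.72 and 15.3 ± 1.61 CPM (SD, n = 3 each), and Slc31a2 rose by 49.8% (edgeR log2 fold change 0.58, SE 0.18, 95% interval 0.21 to 0.96, adjusted p = 0.0103). Its spread in the libraries labelled siMt2 was 28.4% of the mean. That is beyond the counting error of 11.8% of the smallest count of either group, 72 in siNT replicate 2. The smallest siMt2 count was 89, with a smaller counting error. Without siMt2 replicate 3 the call was lost and the log2 fold change was 0.38 (edgeR adjusted p = 0.0583). It was also lost without siNT replicate 3, though the log2 fold change, 0.55, hardly moved (edgeR adjusted p = 0.0512). Of all genes tested, 43.7% were called without siNT replicate 3, beside 50.9% in the main fit. With counts thinned to the smallest library the log2 fold change was 0.53 (edgeR adjusted p = 0.0517). Over all 15 alternatives the adjusted p ran from 0.00227 to 0.0583.

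Within a library the count of Slc31a1 was 3.71, 3.58 and 2.69 times that of Slc31a2 in the libraries labelled siMt2 and 5.52, 4.89 and 5.47 times in the siNT libraries. This ratio does not depend on library scaling. The difference in mean log2 ratio was -0.68, lower in 3 of 3 libraries labelled siMt2, and the exact two-sided permutation p was 0.1, the smallest that 3 against 3 libraries allow (0.5 adjusted over the 5 ratios computed). The ratio shares the Slc31a2 counts described above and is not a separate observation of them.

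The pumps did not pass. Atp7a encodes the copper pump of most tissues, which loads secreted enzymes in the Golgi and moves to the cell surface when copper is high. It stood at 111, 94.0 and 111 CPM in the libraries labelled siMt2 and at 101, 115 and 118 CPM in the siNT libraries. The values of the groups are interleaved, and the group means were 105 ± 9.64 and 111 ± 9.11 CPM (SD, n = 3 each; edgeR log2 fold change -0.08, SE 0.08, adjusted p = 0.41). The 95% interval runs from 0.845 to 1.06 times the siNT level. The ratio of Slc31a1 to Atp7a counts, import over export, was 0.618, 0.807 and 0.759 in the libraries labelled siMt2 and 0.779, 0.727 and 0.675 in the siNT libraries (difference of mean log2 ratios -0.005, exact permutation p = 1), with SDs of 0.20 and 0.10 on the log2 scale.

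Atp7b, the pump of liver that sends copper into bile, was close to the detection limit. Its counts were 20, 9 and 6 in the libraries labelled siMt2 and 14, 6 and 12 in the siNT libraries, or 2.38 ± 0.460 and 1.93 ± 0.552 CPM (SD, n = 3 each). With 67 counts in all, the 95% interval of its edgeR fold, 0.698 to 2.26 (adjusted p = 0.522), spans both directions, and a change within it was not detectable at this depth.

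Of the cytosolic chaperones, Ccs was lower and Atox1 did not pass. Ccs encodes the copper chaperone that inserts copper into Sod1 and helps close its disulfide bond. It stood at 79.6, 75.2 and 86.0 CPM in the libraries labelled siMt2, against 125, 116 and 109 CPM in the siNT libraries. The highest siMt2 library lies well below the lowest siNT library. Group means were 80.3 ± 5.44 and 117 ± 8.09 CPM (SD, n = 3 each), so Ccs fell by 31.6% (edgeR log2 fold change -0.55, SE 0.07, 95% interval -0.70 to -0.39, adjusted p = 4.16e-06). The spread in the libraries labelled siMt2, 6.78% of the mean, was close to the counting error of their smallest count, 6.39% of 245. In the siNT libraries the spread was 6.92%, with larger counts of 696, 486 and 715 and so a smaller counting error. The call held in all 15 alternatives, with log2 fold changes between -0.60 and -0.50. A larger absolute change was fitted for 28.7% of all genes tested.

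The enzyme that Ccs serves was lower as well. Sod1 stood at 152, 152 and 116 CPM in the libraries labelled siMt2 and at 190, 210 and 201 CPM in the siNT libraries (edgeR log2 fold change -0.50, SE 0.08, adjusted p = 0.00022). The number of Ccs counts per Sod1 count was 0.524, 0.494 and 0.742 in the libraries labelled siMt2 and 0.659, 0.551 and 0.544 in the siNT libraries. The ranges of this ratio overlap, with siMt2 replicate 3 highest (difference of mean log2 ratios -0.013, exact permutation p = 1). The siMt2 ratios varied by 0.32 on the log2 scale (SD), and without siMt2 replicate 3 the difference was -0.19 (exact permutation p = 0.3).

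Atox1 encodes the small carrier that passes copper to the pumps. It stood at 13.7, 8.96 and 15.1 CPM in the libraries labelled siMt2 and at 15.7, 7.39 and 11.3 CPM in the siNT libraries. Replicate 2 was the lowest of its group in both groups, and the groups overlap fully (12.6 ± 3.21 and 11.5 ± 4.14 CPM, SD, n = 3 each; edgeR log2 fold change 0.10, SE 0.25, adjusted p = 0.755). The siNT libraries varied by 36.2% of their mean, beyond the counting error of 18.0% of the smallest count, 31. The 95% interval spans 0.748 to 1.54 times the level in siNT. Its ratio to Atp7a also overlapped (difference of mean log2 ratios 0.25, exact permutation p = 0.7).

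**Figure D2:**
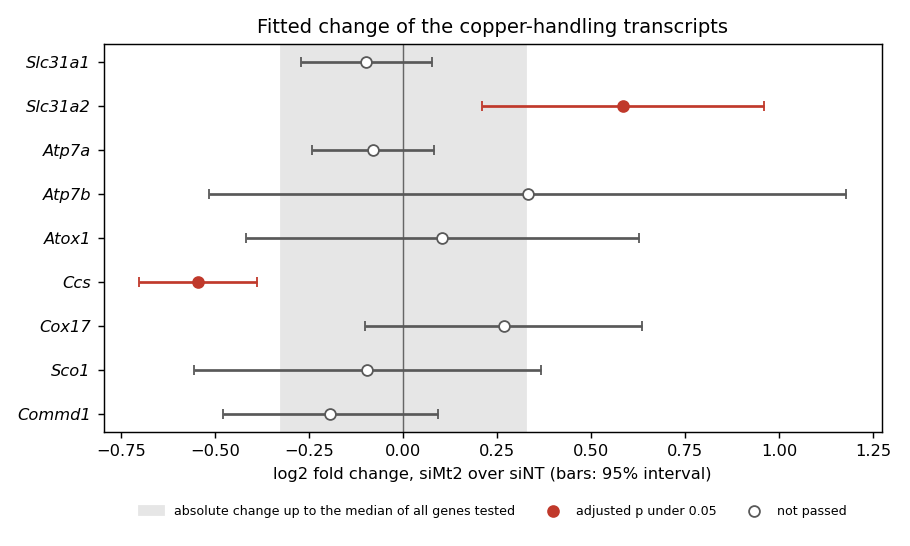
Fitted log2 fold change (horizontal axis, siMt2 over siNT) of the 9 genes with 95% intervals; filled red points passed an adjusted p of 0.05, and the grey band holds absolute changes up to the median of all genes tested, 0.33. Only the intervals of Slc31a2 (0.21 to 0.96) and Ccs (-0.70 to -0.39) leave out 0, and that of Atp7b (-0.52 to 1.18) is the widest.

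The mitochondrial chaperones did not pass. Cox17 encodes the protein that hands copper to Sco1, Sco2 and Cox11 between the mitochondrial membranes. It stood at 21.4, 27.1 and 17.2 CPM in the libraries labelled siMt2 and at 14.2, 21.9 and 19.6 CPM in the siNT libraries (means 21.9 ± 4.97 and 18.6 ± 3.94 CPM, SD, n = 3 each; edgeR log2 fold change 0.27, SE 0.18, adjusted p = 0.221). The ranges of the groups overlap. Without siMt2 replicate 3 the log2 fold change was the highest of those with a library left out, 0.38, and over these the adjusted p ran from 0.052 to 0.694.

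Sco1 encodes the chaperone that builds the copper centre of the cytochrome c oxidase subunit COX2. It stood at 11.8, 8.48 and 13.3 CPM in the libraries labelled siMt2 and at 8.64, 14.8 and 12.5 CPM in the siNT libraries (edgeR log2 fold change -0.10, SE 0.22, adjusted p = 0.745). The groups overlap, and the 95% interval spans 0.680 to 1.29 times the level in siNT. The ratio of Cox17 to Sco1 counts was 1.81, 3.19 and 1.29 in the libraries labelled siMt2 and 1.65, 1.48 and 1.56 in the siNT libraries, so it scattered in the first group and was even in the second (difference of mean log2 ratios 0.32, exact permutation p = 0.6).

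Commd1, whose product binds the pumps and takes part in copper excretion, stood at 22.7, 18.1 and 20.7 CPM in the libraries labelled siMt2 and at 24.7, 24.3 and 22.3 CPM in the siNT libraries. Only siMt2 replicate 1 lies inside the siNT range. The difference did not pass (20.5 ± 2.28 and 23.8 ± 1.27 CPM, SD, n = 3 each; edgeR log2 fold change -0.19, SE 0.14, adjusted p = 0.251), and the 95% interval spans 0.717 to 1.07 times the level in siNT.

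**Figure D3:**
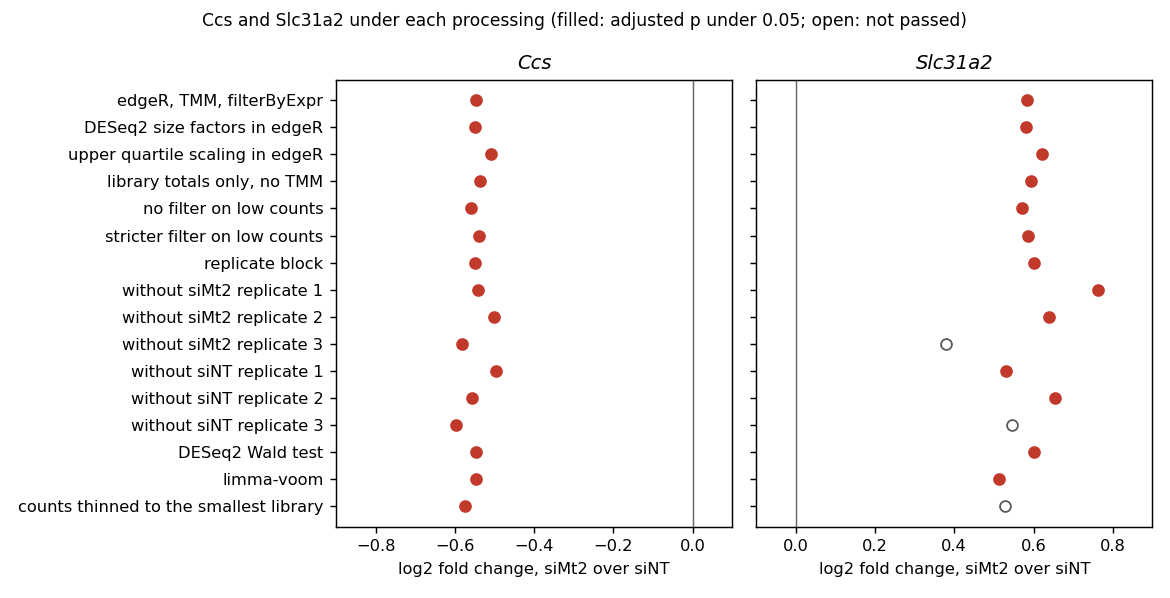
Log2 fold change (horizontal axis, siMt2 over siNT) of Ccs and Slc31a2 under the main processing, in the top row, and 15 alternatives; filled points passed an adjusted p of 0.05. Ccs passed in every one, between -0.60 and -0.50, while Slc31a2 lost its call without siMt2 replicate 3, without siNT replicate 3 and after thinning.

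Genes that receive or accompany copper were counted next, beginning with the enzymes. Of 17 copper enzymes listed, 12 have a row and 11 were tested, of which 6 were higher in the libraries labelled siMt2 and 3 lower, or 81.8% against 50.9% of all genes tested; their median log2 fold change was 0.50. With counts thinned to the smallest library 9 were tested, of which 4 were higher, all of them lysyl oxidases, and 3 lower, and the median was 0.019. Lox, Loxl3, Loxl4, Sod1 and Pam had means above 120 CPM in both groups, and Loxl1 and Heph had means above 70 CPM. Among all genes of 70 to 120 CPM, 61.1% were called. That band does not reach the level of the first genes named, and the share called above 120 CPM was not computed. No test compared this list with other genes. The lysyl oxidases, secreted enzymes that crosslink collagen and elastin and receive copper from Atp7a, made up 4 of the 6 rises. Loxl2 stood at 143, 161 and 148 CPM in the libraries labelled siMt2 and at 61.8, 62.2 and 68.7 CPM in the siNT libraries (edgeR log2 fold change 1.23, SE 0.07, adjusted p = 2.25e-11). Loxl4 (1.03, SE 0.06), Loxl3 (1.01, SE 0.06) and Lox (0.50, SE 0.05) were higher too, with edgeR adjusted p-values of at most 7.51e-08. Loxl1 and the ferroxidase gene Cp were lower (log2 fold changes -0.37 and -0.70, edgeR adjusted p = 0.0154 and 1.39e-05), as was Sod1. The catecholamine-making enzyme gene Dbh was higher, though at a low level, with 40, 30 and 18 counts in the libraries labelled siMt2 and 4, 4 and 12 counts in the siNT libraries (edgeR log2 fold change 2.37, SE 0.38, adjusted p = 2.7e-05). Loxl1, Cp and Dbh were named after their values were seen. Atp7a did not pass in the same libraries.

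Of 17 tested genes that assemble cytochrome c oxidase, 1 was higher and 5 lower, or 35.3% called against 50.9% of all genes tested. Their median log2 fold change was -0.12, and it was -0.076 without siMt2 replicate 1 and -0.061 after thinning, with 16 genes tested in each. Cox16 (-0.73, SE 0.13), Cox14 (-0.42, SE 0.11) and Coa5 (-0.27, SE 0.08), assembly factors of the enzyme, were lower, with edgeR adjusted p-values of 0.000144, 0.00348 and 0.00687. Cmc1, a partner of newly made COX1, was higher at 12.7, 16.3 and 15.8 CPM in the libraries labelled siMt2 against 7.56, 11.9 and 8.56 CPM in the siNT libraries (edgeR log2 fold change 0.67, SE 0.21, adjusted p = 0.00954), and lost its call without siNT replicate 1 or siNT replicate 3, where the highest adjusted p was 0.0602. The count of higher genes was 0 without either of those libraries. It was 2 without siMt2 replicate 3, under upper quartile scaling and after thinning, and 3 genes were lower without siNT replicate 1.

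Of 14 subunits of the oxidase tested, 2 were higher and 5 lower, or 50% called, close to the 50.9% of all genes tested. Cox4i1, a nuclear-encoded subunit, stood at 323, 321 and 317 CPM in the libraries labelled siMt2 and at 470, 482 and 471 CPM in the siNT libraries (edgeR log2 fold change -0.57, SE 0.04, adjusted p = 9.38e-10). Cox6a1 (-0.42, SE 0.07, adjusted p = 9.1e-05) and the mitochondrially encoded COX1, which carries a copper centre (-0.17, SE 0.04, adjusted p = 0.000868), were lower, and Cox8a was higher (0.30, SE 0.10, adjusted p = 0.0149), all by edgeR. Cox8a lost its call without siNT replicate 3 and after thinning (highest adjusted p 0.0849). COX2, whose copper Sco1 delivers, stood at 3686 ± 342 CPM in the libraries labelled siMt2 and 3583 ± 160 CPM in the siNT libraries (SD, n = 3 each; edgeR log2 fold change 0.040, adjusted p = 0.639) and was named after its value was seen. Under upper quartile scaling 4 subunits were higher and 3 lower; 1 was higher without siNT replicate 1 or 2, and 3 were lower without siMt2 replicate 2, siNT replicate 1 or siNT replicate 2.

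Commd1 belongs to a family that works in endosomal retrieval of membrane proteins, the copper pumps among them, together with Ccdc22 and Ccdc93. Of 13 other members and partners tested, 2 were higher and 3 lower, or 38.5% called against 50.9% of all genes tested. Commd4 stood at 18.6, 21.7 and 18.6 CPM in the libraries labelled siMt2 and at 34.4, 43.4 and 42.5 CPM in the siNT libraries (edgeR log2 fold change -1.03, SE 0.13, adjusted p = 1.35e-06). Ccdc93 (-0.34, SE 0.07, adjusted p = 0.00026) and Commd3 (-0.32, SE 0.07, adjusted p = 0.000816) were lower by edgeR and Commd2 was higher (0.66, SE 0.15, adjusted p = 0.00108). The count of higher genes was 4 under upper quartile scaling and 1 without siMt2 replicate 3 or siNT replicate 3. It was also 1 without a filter, with DESeq2 and after thinning.

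Among 9 tested genes of copper reduction, storage and binding, 3 were higher and 2 lower, or 55.6% called, near the 50.9% of all genes tested. The metalloreductase family gene Steap3 was higher (edgeR log2 fold change 0.37, SE 0.10, adjusted p = 0.00512) and its relatives Steap2 (-0.40, SE 0.07, adjusted p = 9.28e-05) and Steap1 (-0.52, SE 0.13, adjusted p = 0.00192) were lower. App, whose product binds copper, was higher at 834 ± 24.8 CPM in the libraries labelled siMt2 against 686 ± 12.8 CPM in the siNT libraries (SD, n = 3 each; edgeR log2 fold change 0.28, adjusted p = 5.96e-06). Without siMt2 replicate 1 the call of Steap3 was lost (edgeR adjusted p = 0.0557) and 1 gene was higher. Mt1, a metallothionein gene like the target, stood at 4.80, 3.30 and 3.86 CPM in the libraries labelled siMt2. In the siNT libraries it stood at 2.34, 2.62 and 2.44 CPM, with 98 counts over both groups. Mt1 did not pass (edgeR log2 fold change 0.72, SE 0.34, adjusted p = 0.082). The metal sensor gene Mtf1 did not pass either (edgeR log2 fold change -0.08, adjusted p = 0.755). Both were named after their values were seen.

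Lipoylation genes are included because lipoylated enzymes bind copper when it is in excess. Of 12 tested, 1 was higher and 3 lower, or 33.3% called against 50.9% of all genes tested. Pdha1, a subunit of pyruvate dehydrogenase, stood at 102, 107 and 111 CPM in the libraries labelled siMt2 and at 183, 183 and 180 CPM in the siNT libraries (edgeR log2 fold change -0.79, SE 0.06, adjusted p = 7.16e-10). Dlat, its lipoylated partner (-0.36, SE 0.08, adjusted p = 0.00121), and Dbt, of the branched-chain complex (-0.19, SE 0.07, adjusted p = 0.0265), were lower by edgeR, and Fdx1, the ferredoxin needed for lipoylation, was higher (0.64, SE 0.20, adjusted p = 0.012). Without siMt2 replicate 1 the calls of Fdx1 and Dbt were lost (highest adjusted p 0.0521 and 0.186) and 0 genes were higher by edgeR. The call of Dbt was also lost without siNT replicate 2, under upper quartile scaling, after thinning and with DESeq2.

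**Figure D4:**
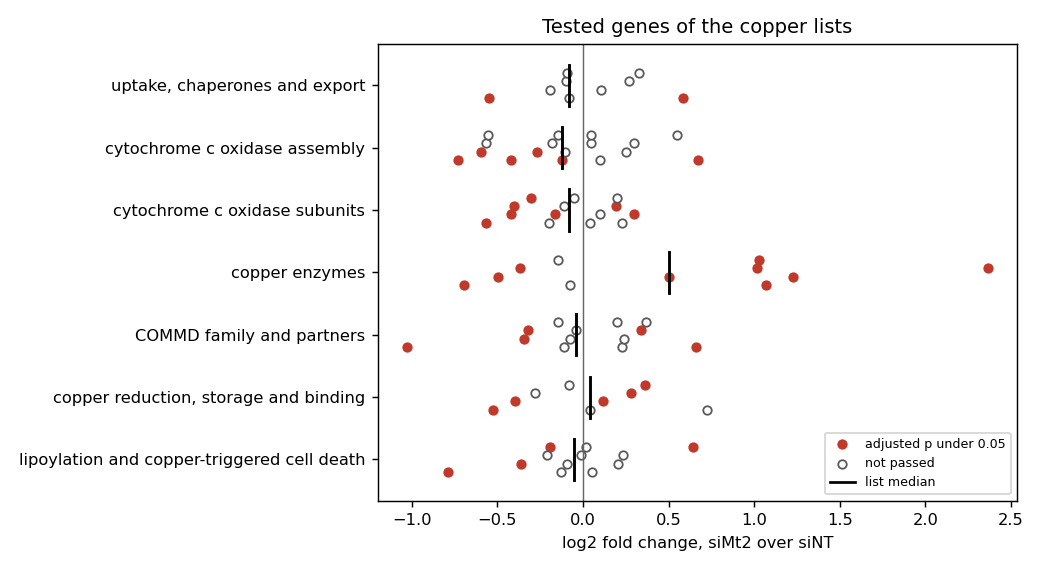
Log2 fold change (horizontal axis, siMt2 over siNT) of each tested gene of the copper lists, 1 point a gene; red points passed an adjusted p of 0.05 and the black line is the list median. The copper enzymes have the highest median, 0.50 (0.019 with 9 genes tested after thinning, below the 0.13 of copper reduction, storage and binding), and the genes of uptake, chaperones and export have 2 red points, Ccs and Slc31a2.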

How the data were processed

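The authors deposited raw whole-number counts per gene, 1 file per library, with no normalization applied. Per the submitters' processing notes, Trimmomatic 0.40, HISAT2 2.2.1, featureCounts, limma, DESeq2 and rn6 were named, without order or settings; the sources used here do not give the handling of strand or of reads matching several genes. Files were joined by row; 25 rows with names turned into dates (0.260% of counts) stayed in.

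The count tests used edgeR 4.0.16 (R 4.3.3): filterByExpr (minimum count 10), TMM scaling, quasi-likelihood test with robust dispersion, two-sided, Benjamini-Hochberg adjustment over all genes tested, threshold 0.05. Totals of 2859759 to 6817777 set the precision: 3 counts, the limit a count of 0 allows, equal 0.440 to 1.05 CPM. Ratios were compared by exact permutation over 20 assignments. The procedure was tested on simulated counts. Libraries of 1 group differed pairwise by 1.57 to 2.23 times what counting alone gives (median chi-square over genes), so none was taken as the same library sequenced again. This measure cannot tell separate cultures from separate preparations of 1 culture.

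Genes named are the 10 listed, up to 4 of each other list with the smallest adjusted p, and Sod1; others are marked. The listed genes, the other lists and the tests were chosen with earlier results of these data known. A synonym in RefSeq (GRCr8) matched Vps26c. Alternatives were DESeq2's size factors, upper quartile and no scaling, no and stricter filters, a block for the replicate number, leaving out each library, DESeq2 1.42.0, limma-voom (limma 3.58.1) and thinning. For the other lists, these were added after seeing the data.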

Additional observations from a re-analysis of the deposited data

How the results depend on the processing

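Ccs kept its direction and its call in all 15 alternatives, and Slc31a1, Atp7a, Atp7b, Cox17 and Commd1 kept their direction without passing in any that could be fitted; Atp7b was filtered out of 4 of them. The count of listed genes called higher was 1 except after thinning to the smallest library, where it was 0, and over the fits with 1 library left out, where it ran from 0 to 1; the count called lower was 1 throughout. Over the same fits the log2 fold change of Atox1 ran from -0.11 to 0.38 (also -0.00066 without siMt2 replicate 3), that of Sco1 from -0.29 to 0.065 (0.053 without siNT replicate 2), and that of Mt2a from -0.56 to 0.052; the cause was not tested. Differences of mean log2 ratios ran from -0.19 to 0.099 for Ccs/Sod1, from -0.084 to 0.11 for Slc31a1/Atp7a, from -0.062 to 0.58 for Atox1/Atp7a, from -0.030 to 0.62 for Cox17/Sco1 and from -0.77 to -0.54 for Slc31a1/Slc31a2. The count of all genes called was 5970, and 4961 with DESeq2 to 6276 without a filter. Replicate numbers did not pair the libraries (correlations of same-numbered deviations -0.0018, -0.060 and 0.023); with the number as a block 5897 genes were called, Slc31a2 was at 0.60 and Ccs at -0.55, and the ratios' sign-flip test cannot go below 0.25. The replicate block moved the oxidase subunits called higher to 4, limma-voom and thinning to 1. Members under 25 CPM had 347 to 677 counts in all, apart from Atp7b with 67, which limits what could be detected.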
